A study of Mus musculus with 7 samples.

Results

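The insulin-like growth factor (IGF) system was followed through 10 genes during regrowth of the mouse plantaris, a fast-fibred muscle of the calf. The genes were the ligands Igf1 and Igf2, the receptors Igf1r and Igf2r, the adaptors Irs1 and Irs2 and the binding proteins Igfbp3, Igfbp4, Igfbp5 and Igfbp6. They were taken by symbol, as array rows that carry that gene symbol alone, and all 10 were among the 12102 genes that passed a filter on low values, of 19938 genes named on the array. Where a gene had more than 1 row, the row of highest mean stood for it, which here concerned Irs1 only. The muscle came from male C57BL/6J mice aged 5 months whose hind limbs had been unloaded by suspension for 2 weeks. It was taken after 1, 3, 5, 7, 10 and 14 days of recovery (d1 to d14) and at the end of suspension (d0, named as the control in the labels), so every group, d0 included, had been suspended. Each time point is 1 Affymetrix Mouse Gene 1.0 ST array of RNA pooled from the left plantaris of 6 animals. A difference between 2 time points therefore has neither a replicate error nor a p-value. How precise any value is depends on there being only 7 arrays.

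IGF-1 is a small secreted hormone made by the liver under growth hormone and also by muscle fibres and macrophages within the muscle. It binds the tyrosine kinase receptor IGF1R, which passes the signal through the docking proteins IRS-1 and IRS-2 to PI3K, Akt and mTORC1, a pathway that raises protein synthesis and restrains the FoxO factors of muscle wasting. Binding proteins hold the ligands outside the cell and set how much reaches the receptor, and IGF2R carries IGF-2 to the lysosome. IGFBP-5 is the binding protein best known in skeletal muscle, where it is made by differentiating myoblasts.

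The promoters of the 3 genes whose levels spanned at least 1.5-fold over the course are shown with that of Irs2, the near relative of Irs1 whose level spanned 1.17-fold. Each is the 250 bases before the start of the gene, from RefSeq on GRCm38.p6, and the window table held all 10 genes, in 13 windows. Capitals mark matches, on either strand, to CAAAACA, the core of the insulin response element through which FoxO factors act on Igfbp1, which reads TGTTTTG on the other strand. They also mark the E-box CACGTG and TATTTAA, a variant of the TATA box. GTAAACA, a FoxO site, and TATAAA were searched as well and are in none of these 4 windows.
Irs1, chr1:82291440-82291689, minus strand: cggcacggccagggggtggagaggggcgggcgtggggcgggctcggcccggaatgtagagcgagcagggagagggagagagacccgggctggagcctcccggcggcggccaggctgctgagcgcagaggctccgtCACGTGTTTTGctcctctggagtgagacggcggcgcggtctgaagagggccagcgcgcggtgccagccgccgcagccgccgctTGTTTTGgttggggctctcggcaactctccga
Irs2, chr8:11008930-11009179, minus strand: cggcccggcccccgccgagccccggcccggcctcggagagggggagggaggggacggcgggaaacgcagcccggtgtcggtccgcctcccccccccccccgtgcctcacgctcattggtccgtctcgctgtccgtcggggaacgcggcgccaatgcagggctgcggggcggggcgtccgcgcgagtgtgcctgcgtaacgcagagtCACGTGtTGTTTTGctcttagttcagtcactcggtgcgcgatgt
Igf1, chr10:87860861-87861110, plus strand: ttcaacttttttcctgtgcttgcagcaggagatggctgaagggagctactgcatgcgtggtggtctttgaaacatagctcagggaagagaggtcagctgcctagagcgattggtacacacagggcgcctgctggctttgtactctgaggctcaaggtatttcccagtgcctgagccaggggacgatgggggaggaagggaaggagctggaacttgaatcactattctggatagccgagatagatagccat
Igfbp5, chr1:72874866-72875115, minus strand: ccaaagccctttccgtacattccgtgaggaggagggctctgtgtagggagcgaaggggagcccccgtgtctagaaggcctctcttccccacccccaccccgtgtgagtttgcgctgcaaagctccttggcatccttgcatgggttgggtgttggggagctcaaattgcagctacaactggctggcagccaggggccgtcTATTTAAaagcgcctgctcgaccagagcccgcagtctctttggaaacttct

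Both adaptor promoters held an E-box beside a TGTTTTG. In Irs1 the E-box began 115 bases before the start and shared 2 bases with the TGTTTTG that began at 111, and a further TGTTTTG began at 32. In Irs2 the E-box began at 44 and 1 base lay between it and the TGTTTTG at 37. Among the windows not printed, that of Igf2r held E-boxes that began at 48 and at 7, without a TGTTTTG. Of 32851 windows of the same length, 5.56% held CAAAACA on either strand, 6.02% CACGTG and 0.295% both. The Igfbp5 window held TATTTAA starting 51 bases before the start, which 4.18% of windows hold, and the Igf1 window held none of the 5 motifs. These matches are letters in a window, and the arrays did not measure binding.

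The arrays were alike in scale, with median intensities of 128.1 to 131.8 over 35556 rows. Markers of muscle fibres fitted the labelled tissue, with 8 of 8 above the median of every array and a summed intensity of 115222 (d1) to 124254 (d10). Of the 8, only Myh2 passed 1.5-fold against d0 on any day, with log2 ratios to d0 of 0.55 (d1) to 1.08 (d3). The d0 and d1 arrays lay furthest from the others. The robust SD over genes of the log2 difference was 0.126 (d14) to 0.179 (d1) between a later day and d0. It was 0.137 (d3) to 0.190 (d7) between d1 and the days after it, and 0.0896 to 0.140 among d3 to d14. An effect of suspension and a fault of the d0 array cannot be told apart, so ratios to d14 are given beside those to d0. On the log2 scale, the later arrays had their median gene between 0.05 (d5) and 0.10 (d1) above d0. In bulk muscle, fewer cells of a type and less RNA per cell cannot be told apart.

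**Figure D1:**
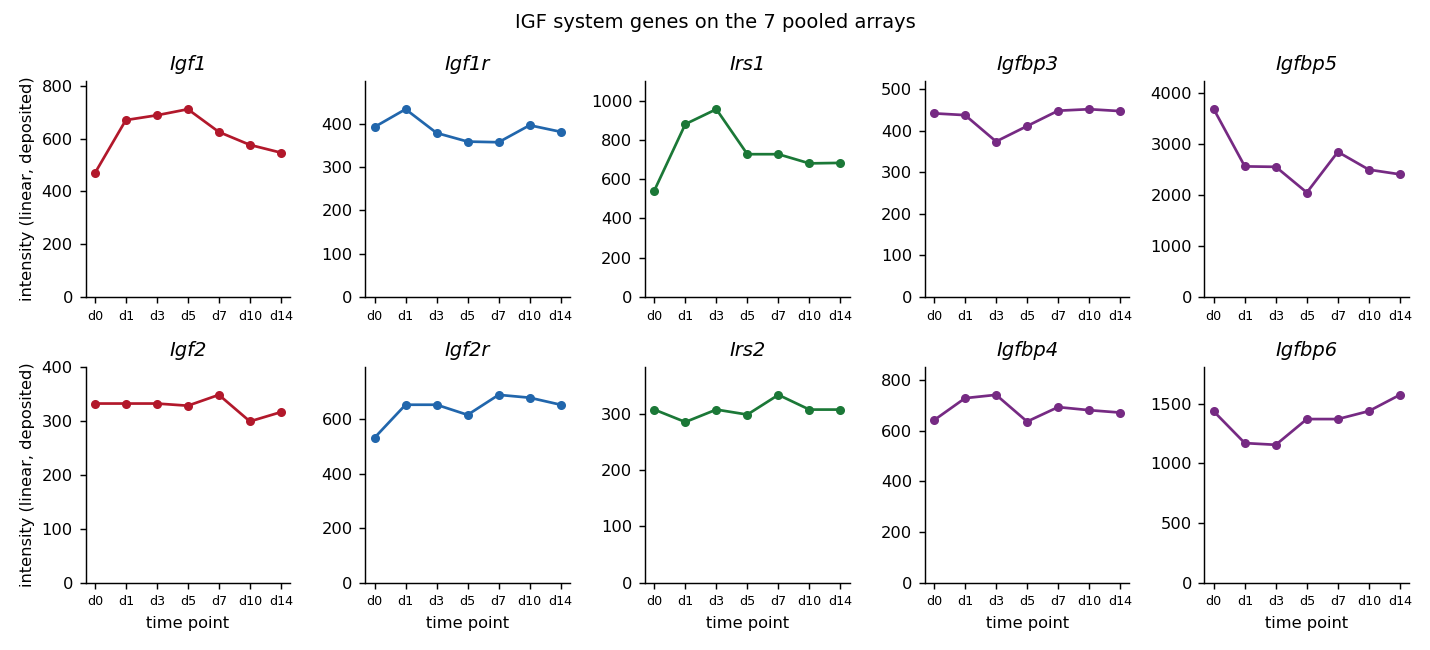
Deposited intensity (linear scale from 0) of the 10 genes at d0, d1, d3, d5, d7, d10 and d14, 1 pooled array per point, with ligands in red, receptors in blue, adaptors in green and binding proteins in purple. Igf1 and Irs1 were lowest at d0 and Igfbp5 was highest at d0, while Igf2, Irs2 and Igfbp4 spanned 1.16- to 1.17-fold.

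Among the ligands, Igf1 stood above d0 on all 6 later days. Its intensities were 468.9 (d0), 670.5 (d1), 688.7 (d3), 711.7 (d5), 625.5 (d7), 576.6 (d10) and 547.1 (d14). The 3 early days were the highest, and from d5 each later array was lower than the last. Igf1 was 1.43-fold above d0 at d1 (log2 0.52), 1.47-fold at d3 (0.55) and 1.52-fold at d5 (0.60), and 1.17-fold at d14 (0.22). Of all genes, 5.00% stood at least as far above d0 at d1, 1.94% at d3 and 1.22% at d5. Set against d14, Igf1 stood at 0.29, 0.33 and 0.38 on the log2 scale at d1, d3 and d5 and at -0.22 at d0, so the early days were above both ends of the course. The 1 row for Igf1 covers several transcripts and does not separate the splice forms of the gene, among them the load-responsive form called mechano growth factor.

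Macrophages are a known source of IGF-1 in muscle, and their markers were high on the same early days. The summed intensity of the 12 listed macrophage markers was 4572 (d0), 6898 (d1), 6604 (d3), 5732 (d5), 4382 (d7), 5491 (d10) and 4079 (d14). At d7 that sum was below d0, while Igf1 was 1.33-fold above d0. Of the 10 macrophage markers that passed the filter, 4 stood above d0 at d7 and 6 below. Cd68, a lysosomal glycoprotein of macrophages, stood at a log2 ratio of -0.09 at d7, and C1qc at 0.52. Cd68 stood at 2.04 at d1, and Cd163 and Fcgr1 did not pass the filter. The part of these markers in the Igf1 values was not tested. Markers of neutrophils and marrow were highest at d10 (median log2 ratio 2.31 over 9 genes), an array on which no member passed 1.5-fold against d0. Of the 4 bone markers on the array, Ibsp stood at 2.80 at d10 and passed the filter through that array alone, Alpl stood at 0.61, and the median of the 4 was 0.39. On the other lists, the medians lay between -0.11 and 0.06 for satellite cells and myoblasts (6 genes) and 0.15 and 0.29 for endothelium (8 genes). They lay between 0.19 and 0.52 for adipocytes and -0.02 and 0.34 for Schwann cells, with 2 genes each that passed the filter. Among the 6 satellite cell and myoblast markers, Myog stood at 0.65 at d1 and Myod1 at 0.38 at d1 and -0.44 at d5. Of these 6, 3 were above d0 and 2 below at d1, and 1 above and 4 below at d5.

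Igf2, the fetal growth factor, was flat by comparison. Its intensities were 332.0 (d0), d1 and d3, 328.0 (d5), 348.1 (d7), 298.9 (d10) and 316.1 (d14). The highest was 1.16-fold above the lowest, and 25.6% of genes spanned less. At d10, Igf2 was furthest from d0, at a log2 ratio of -0.15, and 7.92% of genes stood at least as far below.

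Of the receptors, Igf1r lay near its d0 level and Igf2r above it. Igf1r, the signalling receptor, had intensities of 392.4 (d0), 433.4 (d1), 378.6 (d3), 358.7 (d5), 357.2 (d7), 396.4 (d10) and 381.3 (d14). It was highest at d1, with a log2 ratio to d0 of 0.14, and lowest at d7, at -0.14. On d1, d3, d5 and d7, Igf1 was 1.33- to 1.52-fold above d0, and Igf1r lay above d0 at d1 and below it at d3, d5 and d7. Its log2 ratios on those 3 days were -0.05, -0.13 and -0.14, and 19.2%, 12.6% and 11.2% of genes stood as far below. Igf2r, the mannose 6-phosphate receptor that clears IGF-2, had intensities of 532.2 (d0), 653.3 (d1) and d3, 616.1 (d5), 689.6 (d7), 679.2 (d10) and 653.3 (d14). All 6 later arrays were above d0, at log2 ratios of 0.21 (d5) to 0.37 (d7). Against d14, Igf2r lay between -0.08 and 0.08 on the other later days and at -0.30 at d0. Its log2 range was 0.37 over the 7 arrays and 0.16 without d0. At d7, 9.05% of genes stood as far above d0.

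The adaptors parted. Irs1, the main insulin and IGF-1 docking protein of muscle, had intensities of 541.7 (d0), 880.0 (d1), 956.0 (d3), 727.0 (d5) and d7, 680.3 (d10) and 682.8 (d14). It was highest at d1 and d3, and all later days were above d0. Irs1 was 1.62-fold above d0 at d1 (log2 0.70) and 1.76-fold at d3 (0.82), the largest ratios above d0 among the 10 genes, and 1.26-fold at d14 (0.33). Of all genes, 0.711% stood as far above d0 at d3. From d3 to d5, Irs1 dropped by 0.40 on the log2 scale, a step that 0.934% of genes matched in size. Against d14, it stood at 0.37 at d1 and 0.49 at d3, and at -0.33 at d0.

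A second row carries the symbol Irs1, from a single deposited transcript sequence, at intensities of 42.8 to 61.8, below the median of every array. It did not follow the main row, with log2 ratios to d0 of 0.25 at d1, 0.04 at d3 and -0.28 at d10. With the mean of both rows, Irs1 did not pass 1.5-fold on any day. Irs2, the other docking protein, had intensities of 307.8 at d0, d3, d10 and d14, 285.7 at d1, 298.9 at d5 and 334.0 at d7. It lay at -0.11 at d1, when Irs1 stood at 0.70, and its highest value was 1.17-fold above its lowest.

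Igfbp5 led the binding proteins and was below d0 on all 6 later days. Its intensities were 3684.6 (d0), 2562.8 (d1), 2554.1 (d3), 2050.1 (d5), 2847.5 (d7), 2498.8 (d10) and 2407.5 (d14). The d0 array was the highest by a wide gap, and d5 was the lowest. Igfbp5 was 44.4% below d0 at d5 (log2 -0.85) and between 22.7% (d7) and 34.7% (d14) below on the other later days. At d5, 0.413% of genes stood as far below d0, and at d14, 0.661% did. The later days also differed among themselves. From d5 to d7, Igfbp5 was higher by 0.47 on the log2 scale, and 0.901% of genes took a step of that size or more. Against d14, it stood at 0.61 at d0, -0.23 at d5 and 0.24 at d7, and within 0.09 of d14 at d1, d3 and d10. Igf1 was at its highest and Igfbp5 at its lowest on the same array, d5.

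Igfbp6, which prefers IGF-2 over IGF-1, was low early and high late. Its intensities were 1436.8 (d0), 1170.9 (d1), 1156.8 (d3), 1372.6 (d5) and d7, 1439.5 (d10) and 1575.8 (d14). Only d10 and d14 were above d0, and d1 and d3 were the lowest. The log2 ratio to d0 was -0.30 at d1, -0.31 at d3 and 0.13 at d14, and against d14 it was -0.43 at d1 and -0.45 at d3. Of all genes, 3.45% stood as far below d0 at d1 and 2.97% at d3. Tendon markers had their lowest median at d1, at a log2 ratio to d0 of -0.22 over 5 genes that ranged between -0.52 and 0.64, but stood at 0.08 at d3, when Igfbp6 was at its lowest, and at 0.50 at d14. Tnmd, the tendon glycoprotein tenomodulin, stood at -0.52 at d1, and Kera, a cornea and tendon proteoglycan, at -0.36, while the tendon transcription factor gene Scx stood at 0.64 and the matrix gene Thbs4 at 0.51. The summed intensity of the tendon markers was nevertheless lowest at d0 (6956), below d1 (7379). Fibroblast markers had a median of 0.12 at d1 and 0.24 at d3, with 6 of 10 above d0 and 4 below on each day. Their log2 ratios ranged from -0.20 (Dcn) to 0.62 (Lum) at d1 and from -0.31 (Pdgfra) to 0.78 (Lum) at d3. The part of these cells in the Igfbp6 values was not tested.

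The remaining binding proteins differed little. Igfbp3, the main carrier of IGF-1 in blood, had intensities of 441.4 (d0), 437.2 (d1), 373.8 (d3), 410.9 (d5), 447.8 (d7), 451.4 (d10) and 446.9 (d14). The d3 array was the low point, at a log2 ratio to d0 of -0.24, and 4.84% of genes stood as far below. Igfbp4, an inhibitor of IGF action that is cut by the protease PAPP-A, had intensities of 641.9 (d0), 729.0 (d1), 742.0 (d3), 636.5 (d5), 693.6 (d7), 681.5 (d10) and 672.0 (d14). It was highest at d1 and d3, at log2 ratios of 0.18 and 0.21, and stood at d0 level by d5 (-0.01).

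**Figure D2:**
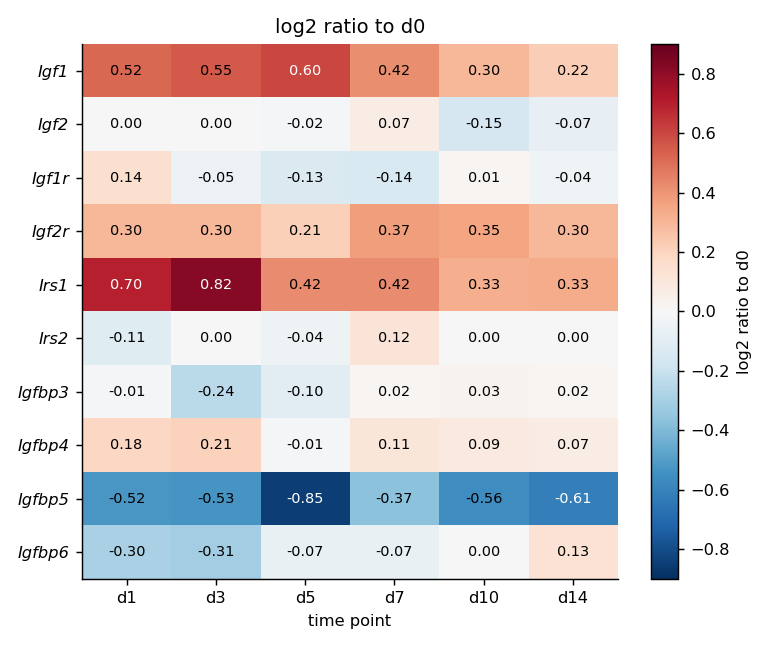
Log2 ratio to d0 of each gene (down the page) at each later time point (across), with the value in each cell and red for higher and blue for lower than d0. Irs1 at d1 and d3 and Igf1 at d5 exceeded 1.5-fold above d0, and Igfbp5 at d5 and d14 exceeded 1.5-fold below it.

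Counted by day at 1.5-fold, few of the 10 genes stood out. At d1, 1 member was higher (Irs1), against 3.45% of all genes, and none lower, against 1.02%. At d3, 1 was higher (Irs1), against 1.65%, and none lower, against 0.843%. At d5, 1 was higher (Igf1), against 1.36%, and 1 lower (Igfbp5), against 0.802%. At d7 and d10 no member passed, where 1.74% and 2.28% of genes were higher and 0.859% and 0.826% lower. At d14, no member was higher, against 0.678%, and 1 was lower (Igfbp5), against 0.694%. In all, 3 of 10 members passed on at least 1 day, against 7.93% of all genes, and the same 3 spanned at least 1.5-fold from lowest to highest array, against 10.5%. No member passed 2-fold on any day, where over the 6 days in turn the genes 2-fold higher were 0.653%, 0.413%, 0.182%, 0.19%, 0.438% and 0.0661% of all, and those 2-fold lower 0.372%, 0.281%, 0.314%, 0.289%, 0.355% and 0.322%. Set against d14, no member passed 1.5-fold from d1 on, where at d1, d3, d5, d7 and d10 1.61%, 0.719%, 0.248%, 0.116% and 0.645% of genes were higher and 0.512%, 0.132%, 0.0661%, 0.0744% and 0.0578% lower. At d0, 1 member was higher than at d14 (Igfbp5), against 0.694% of genes, and none lower, against 0.678%. The threshold fell close to several values. Igf1 at d5 (1.52-fold) was just inside and Igf1 at d3 (1.47-fold) just outside, as were Igfbp5 at d14 (0.653 of d0) inside and at d10 (0.678) outside. Relative to the median gene of the day, a measure chosen after the data were seen, Igf1 at d5 stood at 0.55 and no longer passed. On that scale Igfbp5 passed also at d1 (-0.63), d3 (-0.59) and d10 (-0.66). The members went both ways, and no test of them as a group was made. At d1, 5 of the 10 stood above d0, against 70.9% of all genes, at d3 4 against 65.5%, and at d5 3 against 61.1%. At d7 and d10, 7 stood above d0, against 66.0% and 72.2%, and at d14 6, against 71.3%. The members' median log2 ratio was 0.07 at d1, 0 at d3 and -0.03 at d5, where all genes had 0.10, 0.07 and 0.05. At d7, d10 and d14 it was 0.09, 0.02 and 0.04, where all genes had 0.08, 0.10 and 0.08. Only at d7 was it above that of all genes. Over the course, the median range of the members was 0.33, against 0.31 over all genes.

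**Figure D3:**
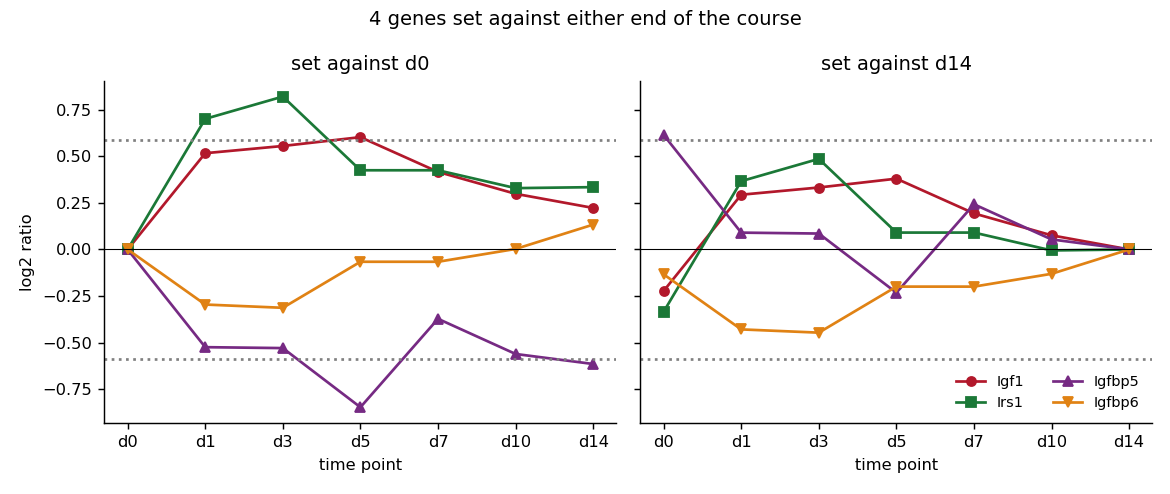
Log2 ratios of Igf1, Irs1, Igfbp5 and Igfbp6 at the 7 time points set against d0 (left) and against d14 (right), with dotted lines at 1.5-fold. Against d14, Igfbp5 at d0 (0.61) was the only value of these genes beyond the lines, while Igf1 and Irs1 at d1 and d3 stood at 0.29 to 0.49.

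Whether the genes followed the days was tested with limma, as a straight trend on log2(day + 1) fitted to all 12102 genes. No gene passed a limma adjusted p of 0.05 over the 7 arrays in either direction (0% of genes), and 1288 (10.6%) did before adjustment, 1 of the 10 members among them (Igf2r, slope 0.067 ± 0.027 per doubling of day + 1, SE, limma adjusted p = 0.448). The limma adjusted p of Igfbp5, slope -0.12 ± 0.054 (SE), was 0.478. Igf1 and Irs1, which were high in the first days and lower later, had slopes of 0.033 ± 0.056 and 0.021 ± 0.070 (SE), with limma adjusted p of 0.881 and 0.952.

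Over the 6 arrays from d1 on, other members had the steepest slopes. Irs1 had a slope of -0.16 ± 0.046 (SE, limma adjusted p = 0.208), Igf1 of -0.11 ± 0.041 (SE, limma adjusted p = 0.322) and Igfbp6 of 0.15 ± 0.031 (SE, limma adjusted p = 0.108). These 3 passed before adjustment, as 13.3% of all genes did, and none passed after it, where 0.157% of genes were higher and 0.198% lower with time. The slope of Igfbp5 without d0 was -0.011 ± 0.061 (SE, limma adjusted p = 0.976). A curved course, with a squared term added, was called for no gene over the 7 arrays after adjustment and for 1735 genes (14.3%) before it. Of the members, 5 passed before adjustment, namely Igf1, Igfbp6, Irs1, Igfbp5 and Igf2r, at limma adjusted p of 0.172, 0.235, 0.302, 0.312 and 0.337.

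**Figure D4:**
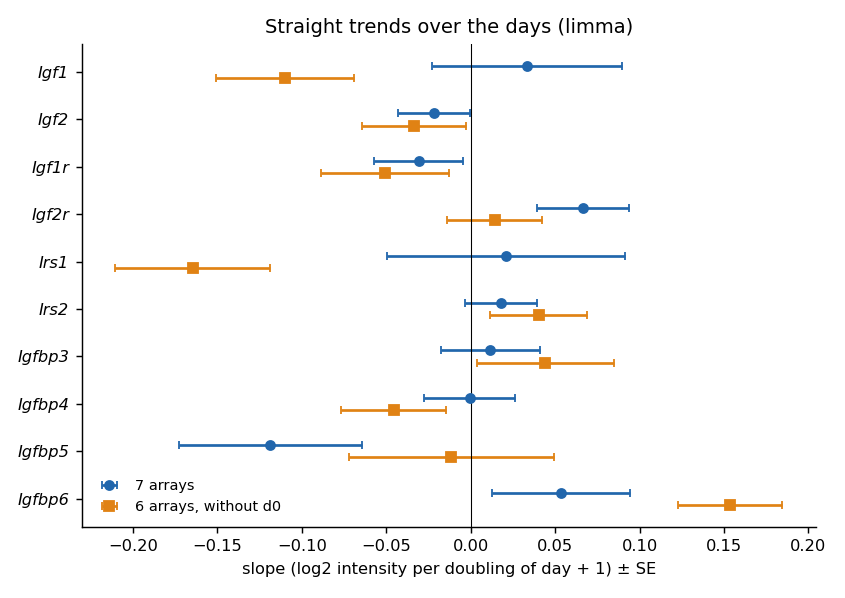
Slope of log2 intensity per doubling of day + 1 for each gene, with its SE from limma, over all 7 arrays (circles) and without d0 (squares). Igf1 and Irs1 had slopes near 0 with d0 and of -0.11 and -0.16 without it, and no slope passed a limma adjusted p of 0.05.

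The other genes of the pathway were read in 6 lists with 85 genes, of which 77 had a row of their own and 66 passed the filter. At d1, 3 of the 66 were at least 1.5-fold higher (4.55%, against 3.45% of all genes) and 1 lower (1.52%, against 1.02%). At d14, none was higher, against 0.678% of all genes, and 1 was lower (1.52%, against 0.694%). Over all days 6 passed (9.09%, against 7.93%), so the pathway as a whole was near the background. Among other IGF family genes none passed. Igfbp7, a matrix protein that binds IGFs weakly, stood at 0.39 at d1 and 0.50 at d3, Insr, the insulin receptor, at 0.23 at d1 and 0.30 at d10, and Igfals, the acid-labile subunit that joins IGFBP-3 in blood, at 0.51 at d3 and 0.58 at d7. Igfbp2, a binding protein of early development, and the docking gene Irs3 lay between -0.07 and 0.24 on all days. Igfbp1, Igfbpl1, Ins2, Insrr and Irs4 did not pass the filter.

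Genes of the growth hormone axis included 2 feedback inhibitors that passed. Cish, a STAT5 target that dampens cytokine receptor signals, had log2 ratios to d0 of 0.73 (d1), 0.67 (d3), 0.69 (d5), 0.41 (d7), 0.50 (d10) and 0.35 (d14). Socs3, another inhibitor of JAK-STAT signalling, stood at 0.44 at d1, 0.72 at d3 and 0.62 at d7. The receptor gene Ghr was below d0 throughout, at -0.44 at d1 and -0.25 at d14, and Socs1 stood at 0.43 at d3. Over d1 to d10, the median of the 8 genes of this axis against d14 lay between -0.01 (d5) and 0.06 (d3). Against d0, their median stood at 0.20 (d10) to 0.26 (d7) on the later days, and at 0.21 at d14.

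Downstream of the receptors, Pik3ca, the catalytic p110 alpha subunit of PI3K, stood at 0.60 at d1 and at 0.30 to 0.36 on the days that followed. Pdpk1, the kinase that activates Akt, stood at 0.53 at d1 and 0.12 to 0.19 afterwards, Pik3cb at 0.44 at d1 and the regulatory subunit gene Pik3r3 at 0.44 at d10. These 4 had the largest ratios of the 19 measured genes of this list, and only Pik3ca passed 1.5-fold. In the list of mTORC1, FoxO and GSK3, Ddit4 (REDD1), a stress-induced inhibitor of mTORC1, was below d0 on all 6 later days, at log2 ratios of -0.70 (d5) to -0.49 (d3). Mtor stood at 0.53 at d1 and 0.07 at d3, Rheb, the GTPase that switches on mTORC1, at 0.38 at d1, and Gsk3b at 0.38 at d1. At d5, 15 of the 18 genes of this list were below d0 and 3 above it, against 61.1% of all genes above, with a median of -0.07, against 0.05 over all genes.

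Of the 12 genes of binding protein proteases and their inhibitors on the array, 8 passed the filter. Pappa, the gene of PAPP-A, was not among the 8. Adamts1, a secreted metalloprotease, passed 1.5-fold, at 0.70 at d1, and stood at 0.13 at d5. Mmp2, a gelatinase, stood at -0.42 at d1 and 0.17 at d14, the inhibitor gene Stc2 at 0.29 at d1, and Htra1, a serine protease, at 0.27 at d10. In the imprinted network around Igf2, Mest, an imprinted gene of the hydrolase family, passed at d5 (log2 ratio 0.83) and d10 (0.66), Dlk1, a Notch-like membrane protein, stood at 0.53 at d7 when Igf2 was at 0.07, and Sgce and Peg3 lay between -0.22 and 0.39. H19 and Igf2bp2 had no row of their own.

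**Figure D5:**
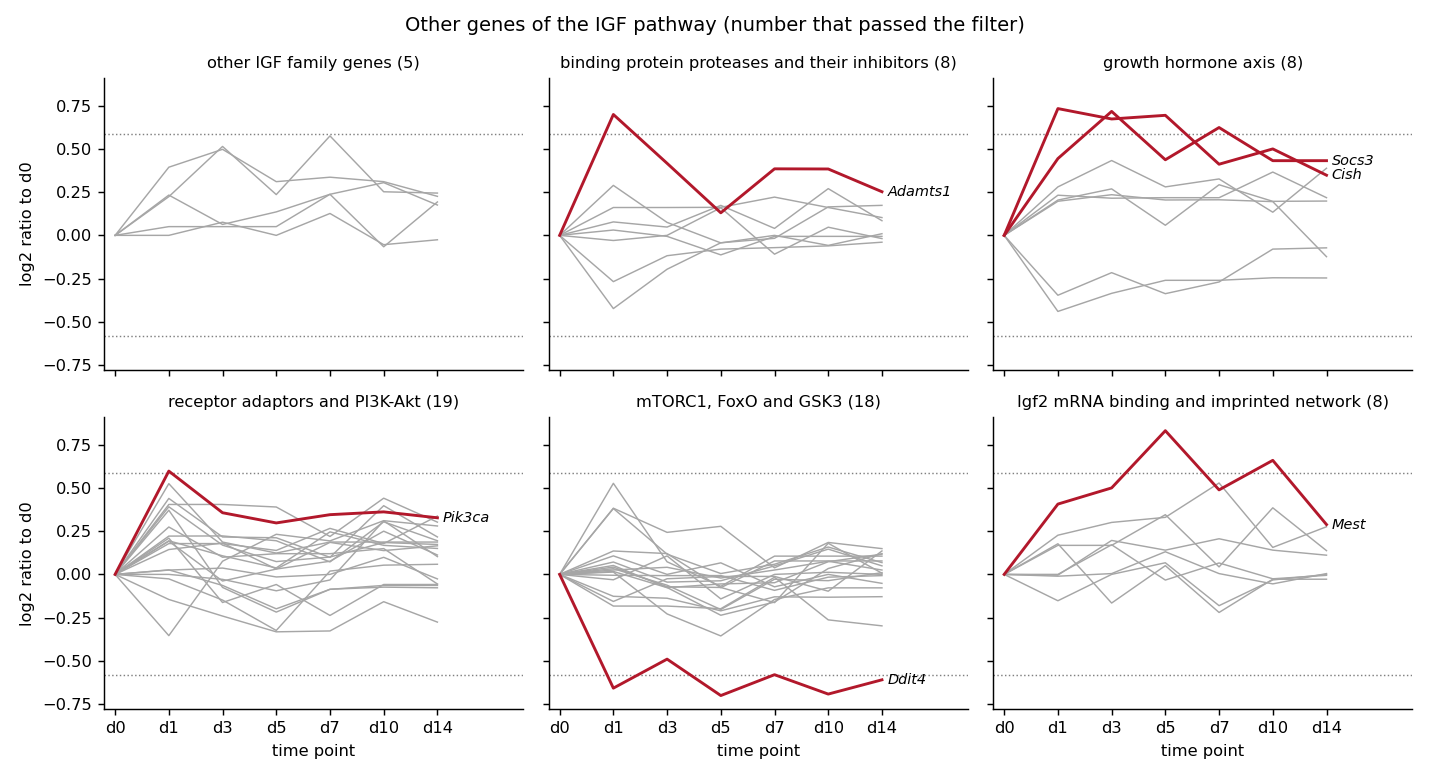
Log2 ratio to d0 over the 7 time points for the genes of 6 pathway lists that passed the filter, 1 line a gene, with genes that passed 1.5-fold on any day in red and named, and dotted lines at 1.5-fold. Adamts1, Socs3, Cish, Pik3ca and Mest passed above d0 and Ddit4 below it.

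The genes most like Igf1, Irs1 and Igfbp5 were sought by Pearson's r of log2 intensity over the 7 arrays, given as a description. The search ran over 1104 other named genes that spanned at least 1.5-fold. With so many candidates and 7 points, high values of r arise easily, and all profiles share the d0 array. Hspd1, the mitochondrial chaperonin HSP60, was most like Igf1 (r = 0.961), with log2 ratios to d0 of 0.59 at d1, 0.59 at d5 and 0.31 at d14. Cish, described above, was next (0.949) and the ribosomal protein pseudogene Rps19-ps3, which can share signal with its parent gene, followed (0.939). Trim72, the membrane repair protein MG53 of muscle, was most like Irs1 (r = 0.978), at 0.72 at d1, 0.74 at d3 and 0.26 at d14. Ciao2b, a factor of iron-sulfur protein assembly (0.975), and Adamtsl5, a matrix protein (0.972), followed. For Igfbp5 the nearest were Cyp2b23, a cytochrome P450 (r = 0.962), the clock gene Per1 (0.927) and Cntfr, the receptor of ciliary neurotrophic factor (0.912). Cyp2b23 passed the filter through d0 alone (139.0), the array where Igfbp5 was also highest. On the later days Cyp2b23 lay below the array median, at 82.3 (d5) to 112.4 (d7), so its place among the candidates rests on d0. Per1, like Igfbp5, was lowest at d5, at a log2 ratio of -0.73, and Cntfr lay between -0.78 and -0.61 on all 6 later days.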

How the data were processed

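RNA of the left plantaris, pooled from 6 mice per time point, was hybridised to 7 arrays, per the labels and the series' design text. Input RNA was 250 ng by the labelling protocol and 100 ng by the design text. The authors deposited linear intensities that were already normalized. Of tools, the submitters' processing notes name Partek. How the arrays were normalized, and on which genome build, is not given in the sources used here. Ratios were formed on log2 values, pseudocount 0. Many deposited values repeat exactly between arrays. Of the kept genes, 55.5% had the same intensity on at least 2 arrays and 26.7% on 3 or more, as did 5 and 3 of the 10 members, so a log2 ratio of 0 can be such a repeat.

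Of 35556 rows, 21789 carried a single symbol in the platform annotation and 1621 several, and 12146 are unnamed here. A gene was kept when at least 1 array had it at or above the median over its rows. Each later day was set against d0 with no test, at 1.5-fold. For trends, limma 3.58.1 was run under R 4.3.3 (lmFit, eBayes with an intensity trend, two-sided, Benjamini-Hochberg over all kept genes). They take pools of different animals and any departure from the fitted course as error. The fits were tested on simulated data. All other steps ran in Python 3.11.15 with numpy 2.4.6, pandas 2.3.3 and matplotlib 3.10.9. The members and gene lists were chosen with earlier results of these data known. All members are named, and of each pathway list the genes with the largest ratios (up to 4, all of the other IGF family genes). Marker genes are named for some lists only, and not always those with the largest ratios. Also named are the 3 genes of highest r to each member that spanned 1.5-fold, leaving out predicted genes, receptors of smell and taste, small RNAs and antigen receptor segments. The alternatives were other filters, normalizations, references, thresholds, pseudocounts, time scales, row rules, the fit without an intensity trend and each time point left out.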

Additional observations from a re-analysis of the deposited data

How the results depend on the processing

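The 3 members past 1.5-fold on any day became 1 (Igfbp5) with d14 as the reference and 0 at the 2-fold threshold. They also became 0 when each later array was set against the mean of the other 6, a count that left out the d0 array. The count of 6 pathway genes became 3 with d14 as the reference, namely Mmp2, Grb14 and Ddit4, of which only Ddit4 was among the 6. It became 0 at 2-fold and 0 for the later arrays against the mean of the other 6. At a threshold of 25% above d0 or the same fold below, it became 28. The trend was called for 1 gene and the curve for 10 genes with the filter at the 75th percentile. With a time point left out, the trend was called for 0 to 43 genes, the most without d0, and the curve for 0 to 29, the most without d0 and 7 without d1. No member passed an adjusted p of 0.05 in any of these fits. The slope of Igf1 turned to -0.0047 per day, and lay between -0.11 and 0.079 with a time point left out, below 0 without d0. The slope of Irs1 turned to -0.0073 per day, -0.0049 per rank and -0.014 with the mean of its rows, and lay between -0.16 and 0.067 with a time point left out, below 0 without d0. The slope of Igfbp4 lay between -0.046 and 0.013 in the same fits. Of 410 log2 ratios of members under an alternative, 354 moved by less than 0.105 and 56 by more. The 0.105 is the robust SD over genes between d14 and d7. Of the 56, 25 came with d14 as the reference, 26 with the mean of the other 6 arrays and 5 with the mean of the rows. Part of the 354 was fixed by the settings. Ratios relative to the median gene could move by at most 0.10 (d1), and the mean of the rows could change Irs1 only. No paired analysis was possible because each time point is 1 pooled array. With so few arrays the precision is low, and detection above background per gene was not analysed here.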
